A study of Mus musculus with 6 samples.

Results

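The interleukin-1 (IL-1) family and inflammasome genes *Il1a*, *Il1b*, *Il1rn*, *Il1r1*, *Il1r2*, *Il1rap*, *Il18*, *Nlrp3*, *Casp1* and *Gsdmd* were examined in infarcted mouse hearts. These 10 genes, chosen by gene name, were each found once among the 54532 genes of the deposited table. The authors describe their C57BL/6J mice, taken here as the source of the 3 WT mice, as young adult males from a commercial breeder. The 3 mice labelled TSLPR KO, called *Crlf2-/-* here, carry a knockout of the receptor chain for thymic stromal lymphopoietin (TSLP) by their label. The knockout was made on the same background by another company. If the WT mice were the purchased ones, supplier and genotype cannot be told apart. Whether they were littermates instead is not stated, nor are the sex and age of the *Crlf2-/-* mice. The left anterior descending coronary artery was ligated in all 6 mice, and peri-infarcted and infarcted tissue was taken on day 7 for RNA sequencing, with 1 library per mouse. No uninjured heart is among the samples, and the comparison is therefore between genotypes within infarcted hearts only.

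IL-1α and IL-1β are cytokines that signal through the IL-1 receptor, which consists of a ligand-binding chain (*Il1r1*) and a shared accessory chain (*Il1rap*). The receptor antagonist (*Il1rn*) occupies the receptor without activating it, and the decoy receptor (*Il1r2*) binds the ligand without signalling. IL-1β and IL-18 are made as inactive precursors, and are cut by caspase-1 (*Casp1*) once a sensor such as NLRP3 has assembled an inflammasome. The same protease cuts gasdermin D (*Gsdmd*), whose fragments form pores in the cell membrane. After myocardial infarction this pathway is known for the early inflammatory phase in the heart, where macrophages and neutrophils are major sources.

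The libraries held from 18508646 to 19682428 fragments that fell on genes. Levels are given in FPKM (fragments divided by the length of the gene and the size of the library), so that genes of different length can be compared, and were scaled further between libraries. *Crlf2* itself was at 26.8, 24.9 and 21.6 FPKM in the WT hearts and at 13.2, 18.6 and 19.9 FPKM in the *Crlf2-/-* hearts (log2 fold change -0.52, adjusted p = 0.521, limma). Its levels did not overlap between the groups, but it was not called and its transcripts were not lost, at a ratio of means of 0.705. Values for the whole gene do not show whether these transcripts were complete. The authors describe genotyping of their mice by PCR on tail DNA. In the sequencing data the loss of the receptor rests on the label, and directions are between the groups as labelled. The extraction text in the labels speaks of retina, yet the summed level of 8 retina markers was between 0.11 and 0.196 FPKM in all 6 libraries, with *Rcvrn*, *Crx* and *Prph2* at 0. The summed level of 8 cardiomyocyte markers was between 949 and 1810 FPKM in WT and between 620 and 1230 FPKM in *Crlf2-/-* hearts.

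Of the 9 genes that could be tested, 0 were called different between *Crlf2-/-* and WT hearts. A difference was called where the adjusted p did not exceed 0.05 and the log2 fold change was 0.5 or more in either direction. By this rule 0.0129% of 15520 genes were called, 0.00644% higher and 0.00644% lower, which were 2 genes in all (limma, Benjamini-Hochberg adjustment over all genes). The authors, with a test on counts (DESeq2) and the same thresholds, called many more genes in these hearts, both higher and lower. The number called here therefore holds for the test used here. The adjusted p-values of the 9 genes ranged from 0.729 to 0.996, and their log2 fold changes from -0.48 for *Nlrp3* to 0.39 for *Il18*. Before adjustment *Nlrp3* alone, 1 of the 9, had a p under 0.05 (limma), and 6.58% of all tested genes did, 3.22% higher and 3.36% lower. *Nlrp3* was also the 1 gene of the 9 without overlap between WT and *Crlf2-/-* hearts, which held for 11.7% of the whole table, 5.37% higher and 6.37% lower. A count of 1 in 9 does not set these genes apart from that background. Of the 9 genes, 3 were higher and 6 were lower on average, with a median log2 fold change of -0.10, where all tested genes had a median of -0.0042. This median was -0.201 without *Crlf2-/-* replicate 1, -0.0216 without WT replicate 1 and 0.00555 without *Crlf2-/-* replicate 3. *Il1a* was too low for the fit, which required at least 10 fragments in at least 3 libraries, so its values stand on their own.

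**Figure D1:**
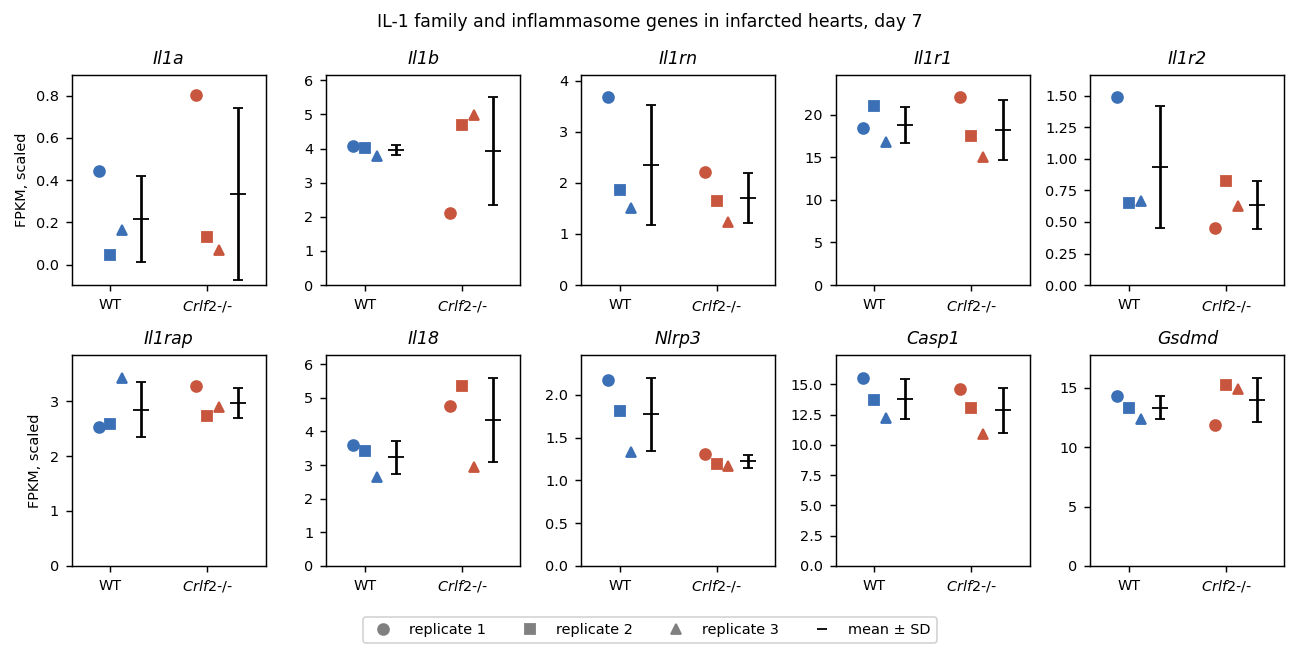
Scaled FPKM (vertical axes) of the 10 genes in each of the 3 WT and 3 *Crlf2-/-* hearts, where each symbol is 1 heart and the black mark with bars beside it is the mean ± SD. Only for *Nlrp3* do all 3 *Crlf2-/-* hearts, between 1.17 and 1.31 FPKM, lie below all 3 WT hearts, between 1.33 and 2.18 FPKM.

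The genes differed widely in level. *Il1r1* had the highest mean over the 6 libraries, at 18.5 FPKM, and was above *Gsdmd* in 6 of 6 libraries. *Gsdmd* and *Casp1* followed at 13.7 and 13.3 FPKM, and their order was not fixed, since *Gsdmd* was the higher of the pair in 3 of 6 libraries. Both lay above *Il1b*, at 3.94 FPKM, without overlap in their ranges. *Il1b* and *Il18*, at 3.78 FPKM, did not differ beyond their spread, with *Il1b* higher in 4 of 6 libraries. *Il1rap* (2.91 FPKM), *Il1rn* (2.02 FPKM), *Nlrp3* (1.498 FPKM), *Il1r2* (0.786 FPKM) and *Il1a* (0.275 FPKM) came next, each with a range that overlapped that of its neighbour. The ligand-binding chain *Il1r1*, the protease and the pore former were therefore present at higher levels than the cytokines and the sensor, whereas the accessory chain *Il1rap* was not. Of all genes tested, 86.2% lay below *Il1r1*, 50.2% below *Il1b*, 28.3% below *Nlrp3* and 7.33% below *Il1a*. FPKM divides by the length of all annotated exons together, which is 5535 bases for *Il1rn* and 11360 bases for *Il1rap*, and a transcript that uses only some of them reads lower than it is.

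The 2 agonist genes are neighbours on the minus strand of chromosome 2 (GRCm38). *Il1a* (ENSMUSG00000027399) lies from 129299610 to 129309972 with 7 exons, and *Il1b* (ENSMUSG00000027398) lies from 129364570 to 129371139. Their upstream sequences are shown because their levels parted in 1 of the *Crlf2-/-* hearts, described next. The 250 bases before the RefSeq start site (GRCm38.p6) are chr2:129309973-129310222 for *Il1a* and chr2:129371140-129371389 for *Il1b*, both written 5′ to 3′ on the minus strand, with matches to the searched motifs in capitals.
*Il1a*: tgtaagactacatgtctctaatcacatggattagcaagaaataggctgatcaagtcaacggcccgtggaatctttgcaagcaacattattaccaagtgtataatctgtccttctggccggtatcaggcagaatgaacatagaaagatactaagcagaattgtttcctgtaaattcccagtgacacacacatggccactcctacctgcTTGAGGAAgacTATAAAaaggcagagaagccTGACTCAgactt
*Il1b*: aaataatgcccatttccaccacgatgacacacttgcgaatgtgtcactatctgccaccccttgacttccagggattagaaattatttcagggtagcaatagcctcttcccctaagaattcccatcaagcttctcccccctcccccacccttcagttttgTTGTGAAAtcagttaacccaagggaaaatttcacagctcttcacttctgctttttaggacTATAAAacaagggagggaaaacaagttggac
The motifs searched, on both strands, were the TATA box (TATAAA), an AP-1 site (TGANTCA), a C/EBP site (TTNCNNAA), a PU.1 site (GAGGAAGT) and the NF-kB consensus. A TATA box stood at almost the same distance from both start sites, from -32 to -27 in *Il1a* and from -31 to -26 in *Il1b*, and 12.4% of 32851 promoter windows of the same length hold one. A C/EBP match stood from -43 to -36 in *Il1a* and from -91 to -84 in *Il1b*, where 36.8% of windows hold one. *Il1a* also had an AP-1 match from -12 to -6, a motif found in 6.75% of windows. Neither window held the letters of the PU.1 site (2.44% of windows) or the NF-kB consensus (7.25% of windows). RefSeq sequences were found for 9 of the 10 genes, all but *Gsdmd*.

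*Il1b* was not called different between the genotypes, and the *Crlf2-/-* hearts were far from uniform. It was at 4.08, 4.01 and 3.78 FPKM in the WT hearts and at 2.11, 4.68 and 4.99 FPKM in the *Crlf2-/-* hearts. The 3 WT hearts were thus close together, while *Crlf2-/-* replicate 1 was the lowest and the other two *Crlf2-/-* hearts the highest of all 6. The coefficient of variation was 3.92% in WT and 40.2% in *Crlf2-/-* hearts, where counting error alone would give 7.72% and 7.65%. On average the log2 fold change was -0.10 (SE 0.29, 95% interval -0.78 to 0.57, adjusted p = 0.996, limma), and it was 0.28 without *Crlf2-/-* replicate 1. The interval corresponds to a ratio of *Crlf2-/-* over WT hearts between 0.583 and 1.49. Its levels rest on 178, 167 and 158 fragments in WT and on 89, 209 and 214 fragments in *Crlf2-/-* hearts.

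*Il1a* showed the reverse order in the same heart. Its fragments numbered 20, 2 and 7 in WT and 35, 6 and 3 in *Crlf2-/-* hearts, so that *Crlf2-/-* replicate 1 was the highest of all 6 libraries. In FPKM these were 0.443, 0.0463 and 0.162 in WT and 0.803, 0.130 and 0.0676 in *Crlf2-/-* hearts. The groups overlapped widely (exact permutation test, two-sided, p = 0.8). Exact Poisson 95% intervals, which cover counting error only, were 24.4 to 48.7 fragments for *Crlf2-/-* replicate 1, and 0.619 to 8.77 fragments for replicate 3 of the same group. The spread within the group was therefore larger than counting error. *Il1a* shares exon sequence with the antisense gene *Gm14023*, which had between 4 and 8 fragments in each library. The strand used in counting is not given in the sources used here, so reads from that stretch cannot be told apart. *Il1b* and *Il1rap* also share exon sequence with an antisense gene, *Il1bos* and *Gm20319*, which had at most 3 fragments in any library. The ratio of *Il1b* to *Il1a* in FPKM was 9.21, 86.4 and 23.4 in WT hearts and 2.63, 36.1 and 73.8 in *Crlf2-/-* hearts, and differed between hearts far more than between groups (exact permutation test, two-sided, p = 0.8). In every one of the 6 hearts *Il1b* was the more abundant of the pair.

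By a fixed rule, the genes whose pattern over the 6 libraries was most like that of *Il1b* were *Hist1h4h*, *Dus3l*, *Pheta1*, *Anks3* and *Rpl10a-ps1*. The measure was Pearson's r of log2(FPKM + 0.1), which was 0.9953, 0.9896, 0.9864, 0.9861 and 0.9848, given as a description because the 5 were picked as the highest of 15519 genes. Of these 15519 genes, 61 had an r of at least 0.95 with *Il1b* and 1 had an r of at least 0.99. *Hist1h4h*, a histone H4 gene, was at 0.386 FPKM in *Crlf2-/-* replicate 1 and at 2.18 and 2.65 FPKM in the other two. The pattern that these genes share is a low value in that 1 heart. *Hist1h4h* and the pseudogene *Rpl10a-ps1* have near-identical copies elsewhere, so their own levels are uncertain.

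*Il18* (ENSMUSG00000039217, chromosome 9, from 50554827 to 50581840, plus strand) encodes the other cytokine that caspase-1 activates. It was at 3.61, 3.42 and 2.66 FPKM in WT hearts and at 4.75, 5.34 and 2.94 FPKM in *Crlf2-/-* hearts. In 2 of the 3 *Crlf2-/-* hearts *Il18* was above every WT heart, and in replicate 3 it was within the WT range. Its log2 fold change of 0.39 was the largest upward value among the 9 tested genes, but was not past the threshold (SE 0.23, 95% interval -0.14 to 0.91, adjusted p = 0.874, limma). It was 0.64 without *Crlf2-/-* replicate 3 and 0.22 without *Crlf2-/-* replicate 2. *Il18* overlaps *Bco2* and *Tex12* on the other strand, though with no overlap between exons.

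*Il18bp*, the secreted protein that binds IL-18 and keeps it from its receptor, was at 3.28, 3.55 and 3.62 FPKM in WT and at 4.21, 5.88 and 4.56 FPKM in *Crlf2-/-* hearts. All 3 *Crlf2-/-* hearts lay above all 3 WT hearts. This amounted to a log2 fold change of 0.46 (SE 0.14, 95% interval 0.13 to 0.80), which was not past the threshold (adjusted p = 0.514, limma). The ratio of *Il18bp* to *Il18* was between 0.91 and 1.36 in WT and between 0.886 and 1.55 in *Crlf2-/-* hearts, and the groups overlapped (exact permutation test, two-sided, p = 0.8).

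Among the inhibitors of IL-1, *Il1rn* (ENSMUSG00000026981, chromosome 2, from 24336853 to 24351494, plus strand) was at 3.68, 1.87 and 1.501 FPKM in WT hearts and at 2.21, 1.65 and 1.24 FPKM in *Crlf2-/-* hearts. WT replicate 1 was well above the others, and the remaining 5 hearts ranged from 1.24 to 2.21 FPKM. Its log2 fold change was -0.38 (SE 0.33, 95% interval -1.15 to 0.39, adjusted p = 0.955, limma). Without WT replicate 1 it was -0.016, so the mean difference rested on that heart. The ratio of *Il1rn* to *Il1b*, antagonist over agonist, was 0.902, 0.466 and 0.397 in WT and 1.05, 0.353 and 0.248 in *Crlf2-/-* hearts. In both groups replicate 1 had the highest ratio and the highest *Il1rn*, and in *Crlf2-/-* replicate 1 *Il1b* was low as well. The ratios overlapped between groups (exact permutation test, two-sided, p = 0.7).

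The decoy receptor gene *Il1r2* (ENSMUSG00000026073, chromosome 1, from 40074079 to 40125231, plus strand) was at 1.49, 0.647 and 0.670 FPKM in WT hearts and at 0.451, 0.828 and 0.630 FPKM in *Crlf2-/-* hearts. WT replicate 1 was again the highest, and the other 5 hearts overlapped. Its log2 fold change was -0.43 (SE 0.34, 95% interval -1.21 to 0.35, adjusted p = 0.945, limma) and -0.075 without WT replicate 1. With 19 to 65 fragments per library, counting error alone amounted to 15.8% of the mean in WT and 19.0% in *Crlf2-/-* hearts.

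The signalling receptor showed no such outlying heart. *Il1r1* (ENSMUSG00000026072, chromosome 1, from 40225080 to 40317257, plus strand) was at 18.5, 21.0 and 16.8 FPKM in WT hearts and at 22.1, 17.5 and 15.1 FPKM in *Crlf2-/-* hearts. The *Crlf2-/-* hearts held both the highest and the lowest value. Between the groups the log2 fold change was -0.054 (SE 0.16, 95% interval -0.41 to 0.30, adjusted p = 0.996, limma). *Il1rap* (ENSMUSG00000022514, chromosome 16, from 26581704 to 26730117, plus strand), the accessory chain, ranged from 2.53 to 3.43 FPKM in WT and from 2.74 to 3.27 FPKM in *Crlf2-/-* hearts, with a log2 fold change of 0.068 (95% interval -0.29 to 0.42). As ratios of *Crlf2-/-* over WT hearts these intervals ran from 0.752 to 1.23 for *Il1r1* and from 0.819 to 1.34 for *Il1rap*. The ratio of decoy to signalling receptor, *Il1r2* to *Il1r1*, was between 0.0308 and 0.0807 in WT and between 0.0204 and 0.0474 in *Crlf2-/-* hearts (exact permutation test, two-sided, p = 0.6).

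*Nlrp3* (ENSMUSG00000032691, chromosome 11, from 59541568 to 59566956, plus strand), the inflammasome sensor, was the member that came nearest to a difference. It was at 2.18, 1.82 and 1.33 FPKM in WT hearts (1.77 ± 0.426, SD, n = 3) and at 1.31, 1.19 and 1.17 FPKM in *Crlf2-/-* hearts (1.22 ± 0.0727, SD, n = 3). The groups did not overlap, but WT replicate 3 and *Crlf2-/-* replicate 1 almost touched. These 2 libraries held 118 and 117 fragments, with Poisson 95% intervals of 97.7 to 141 and 96.8 to 140. The *Crlf2-/-* hearts were close together, with a coefficient of variation of 5.94%, against 24.0% in WT. Counting error alone would give 9.44% and 7.9%, so the spread among the *Crlf2-/-* hearts was below counting error. In limma the log2 fold change was -0.48 (SE 0.20, 95% interval -0.93 to -0.021), and p was 0.0424 before and 0.729 after adjustment. The exact permutation test gave p = 0.1, two-sided, the smallest that 3 hearts against 3 allow. The log2 fold change stayed negative with each library left out, and was -0.66 when WT replicate 3 was omitted and -0.32 when WT replicate 1 was.

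The sequence before the first *Nlrp3* start site is shown because it is the gene whose groups did not overlap, and because it, unlike those of *Il1a* and *Il1b*, holds the NF-kB consensus. It lies at chr11:59541319-59541568 (GRCm38.p6, plus strand) and is written with motif matches in capitals.
*Nlrp3*: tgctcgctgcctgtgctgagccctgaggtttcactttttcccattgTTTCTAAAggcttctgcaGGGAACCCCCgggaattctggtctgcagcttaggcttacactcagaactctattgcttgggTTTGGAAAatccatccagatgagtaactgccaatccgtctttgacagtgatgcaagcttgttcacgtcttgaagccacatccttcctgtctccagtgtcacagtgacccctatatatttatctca
The match to the NF-kB consensus ran from -186 to -177, and C/EBP matches ran from -204 to -197 and from -125 to -118. No TATA box of these letters was found in the window. A second RefSeq start site at 59542686 had 1 C/EBP match in the 250 bases before it. The NF-kB consensus was not particular to *Nlrp3*. A window of *Il1r1*, before its start site at 40266586, also held it, from -232 to -223, and the groups overlapped for *Il1r1*.

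*Casp1* (ENSMUSG00000025888, chromosome 9, from 5298517 to 5307265, plus strand, 10 exons) was at 15.5, 13.7 and 12.2 FPKM in WT hearts and at 14.6, 13.1 and 10.9 FPKM in *Crlf2-/-* hearts. The groups were interleaved, and the log2 fold change was -0.11 (SE 0.14, 95% interval -0.43 to 0.215, adjusted p = 0.993, limma). *Gsdmd* (ENSMUSG00000022575, chromosome 15, from 75862327 to 75867408, plus strand) was at 14.4, 13.3 and 12.4 FPKM in WT hearts and at 11.8, 15.2 and 14.9 FPKM in *Crlf2-/-* hearts. As with *Il1b*, *Crlf2-/-* replicate 1 was the lowest and the other two *Crlf2-/-* hearts the highest of all 6. The log2 fold change of *Gsdmd* was 0.061 (SE 0.13, 95% interval -0.23 to 0.35, adjusted p = 0.996, limma), which was the narrowest interval of the 9 genes. As ratios of *Crlf2-/-* over WT hearts the intervals ran from 0.741 to 1.16 for *Casp1* and from 0.854 to 1.275 for *Gsdmd*.

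**Figure D2:**
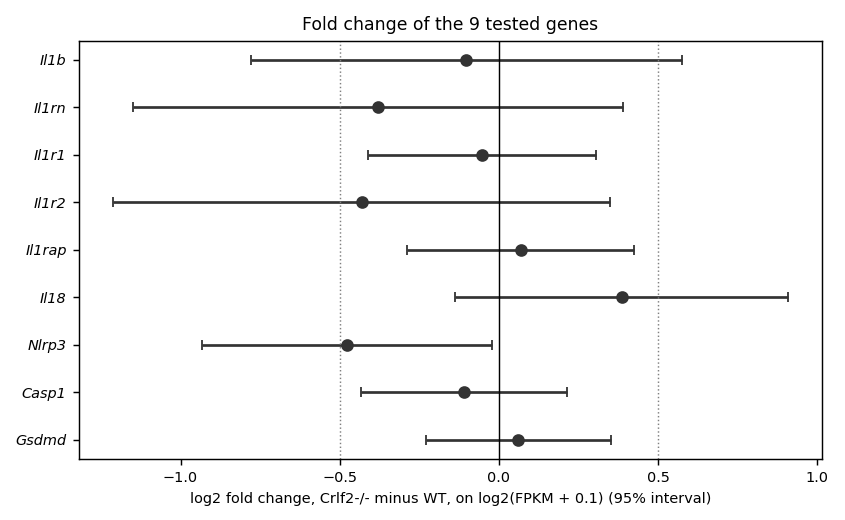
Log2 fold change of the 9 tested genes (points, limma on log2(FPKM + 0.1), *Crlf2-/-* minus WT) with 95% intervals (bars), and dotted lines at the absolute threshold of 0.5. The interval of *Nlrp3*, from -0.93 to -0.021, is the one that leaves out 0, before any adjustment for the number of genes tested.

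Whole tissue was sequenced, and fewer cells of a type cannot be told apart from less RNA per cell. Marker levels of the cells that could carry these transcripts are therefore given beside them. The summed level of 10 monocyte and macrophage markers was between 1710 and 3140 FPKM in WT and between 1840 and 2660 FPKM in *Crlf2-/-* hearts. Of the 10, 9 were higher in *Crlf2-/-* hearts on average, where 49.1% of all tested genes were. *Casp1* and *Il1rn* ordered the 6 hearts alike, from WT replicate 1 at the top through *Crlf2-/-* replicate 1, WT replicate 2, *Crlf2-/-* replicate 2 and WT replicate 3 to *Crlf2-/-* replicate 3. The summed markers gave that order too, save that the hearts at the bottom, both replicate 3, were exchanged. This match was looked for after the values had been seen. Most of the sum was *Lyz2*, at 2593, 1875 and 1311 FPKM in WT and 2137, 1648 and 1402 FPKM in *Crlf2-/-* hearts. *Lyz2* alone ordered the hearts as the sum did, so that order speaks for 1 marker and not for all 10. It was also the 1 marker of the 10 that was lower in *Crlf2-/-* hearts on average. *Il1b* and *Gsdmd* placed 0 of the 6 hearts at the rank that the summed markers gave them, and *Nlrp3* placed 1. Within each group, however, *Nlrp3* ordered the hearts as the sum did, from replicate 1 down to replicate 3, as *Casp1* and *Il1rn* did. *Il1b* and *Gsdmd* followed that order in the WT hearts only. The summed level of 10 neutrophil markers was between 16.6 and 29.1 FPKM in WT and between 18.4 and 24.1 FPKM in *Crlf2-/-* hearts. The neutrophil marker *Ly6g* was at 0 in 5 of 6 libraries, with 2 fragments in the other one. The sums that did not overlap between groups were those of T cells (12 to 17.9 FPKM in WT, 6.71 to 9.42 FPKM in *Crlf2-/-* hearts), endothelium (135 to 157 and 126 to 135 FPKM) and red blood cells (226 to 366 and 85.4 to 161 FPKM), all lower in *Crlf2-/-* hearts as *Nlrp3* was. The endothelial sums almost touched, with WT replicate 1 and *Crlf2-/-* replicate 3 both near 135 FPKM. Of the 6 endothelial markers, 2 were lower without overlap between groups and 1 was higher in *Crlf2-/-* hearts on average. Lower without overlap were also 6 of 7 T cell, 5 of 5 red blood cell and 3 of 7 dendritic cell markers. Of all tested genes 6.37% were lower without overlap. Dendritic cell markers, all 7 lower on average, summed to between 15.2 and 20.2 FPKM in WT and between 9.44 and 15.6 FPKM in *Crlf2-/-* hearts. Sums of B cell markers (5.61 to 7.77 and 4.62 to 9.21 FPKM) and of fibroblast markers (6370 to 7500 and 7490 to 7640 FPKM) overlapped. All 8 cardiomyocyte markers were lower on average in *Crlf2-/-* hearts (median log2 fold change -0.723), where 50.9% of all tested genes were lower. Of the 8, 3 were lower with a p under 0.05 before adjustment (limma), against 3.36% of all tested genes. The sums overlapped, but most of each was *Actc1*, and *Myl2* did not overlap between groups. The share of fragments on mitochondrial genes was also lower without overlap, at 3.13% to 4.07% in WT and 2.78% to 3.001% in *Crlf2-/-* hearts. The part of these cells and of this share in the *Nlrp3* values was not tested.

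**Figure D3:**
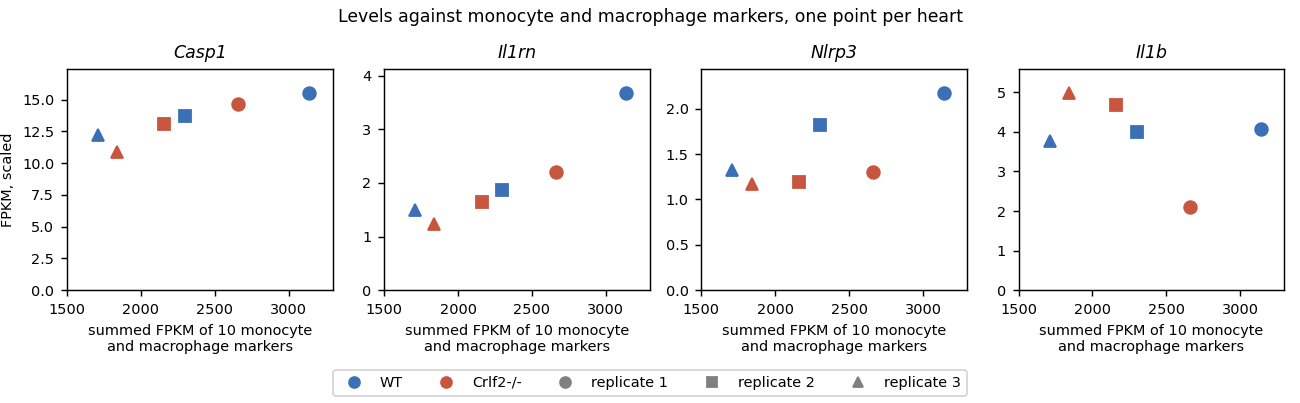
Scaled FPKM of *Casp1*, *Il1rn*, *Nlrp3* and *Il1b* (vertical axes) against the summed FPKM of 10 monocyte and macrophage markers (horizontal axes), where each point is 1 heart. Most of the sum is *Lyz2*, which alone gives the same order of the hearts. *Casp1* and *Il1rn* are highest in WT replicate 1, which has the highest marker sum, at 3140 FPKM, while *Il1b* is lowest in *Crlf2-/-* replicate 1, which has the next highest sum, at 2660 FPKM.

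Other genes of the pathway were described by 4 lists. Of these lists 0 genes were called in either direction, where only 0.0129% of all tested genes were called. Of 14 other IL-1 family ligands, antagonists and receptors, 7 could be tested, 4 of them higher and 3 lower on average, with a median log2 fold change of 0.012. The genes *Il36a*, *Il36b*, *Il36rn*, *Il1f10* and *Il1rapl2* had 0 fragments in all 6 libraries, and a count of 0 allows up to 3 fragments in a library. WT and *Crlf2-/-* hearts did not overlap for 2 of the 7, both higher, where 5.37% of all tested genes were higher without overlap. These were *Il18bp*, described above, and *Il1rl2*, the receptor chain for the IL-36 cytokines. *Il1rl2* was at 2.74, 3.14 and 2.90 FPKM in WT and at 4.90, 3.54 and 3.69 FPKM in *Crlf2-/-* hearts (log2 fold change 0.44, SE 0.15, adjusted p = 0.577, limma). Of the genes for its agonist ligands, *Il36a* and *Il36b* were not detected, and *Il36g* had 7, 3 and 3 fragments in WT and 0, 6 and 5 fragments in *Crlf2-/-* hearts, too few for the fit.

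The 17 signal transducers below the IL-1 receptor all passed the filter, and had the narrowest range of the 4 lists. Of these, 10 were higher and 7 lower, with log2 fold changes from -0.15 to 0.27 and a median of 0.028. WT and *Crlf2-/-* hearts did not overlap for 3 of the 17, 2 higher and 1 lower, against 11.7% of all tested genes. *Irak2*, a kinase of the receptor complex, was at 4.54, 4.03 and 4.82 FPKM in WT and at 5.90, 5.10 and 5.18 FPKM in *Crlf2-/-* hearts (log2 fold change 0.27, adjusted p = 0.773, limma). *Nfkb1*, which encodes a subunit of NF-kB, had a log2 fold change of -0.15, and *Tollip*, an adaptor that restrains the receptor, one of 0.085 (adjusted p = 0.912 and 0.983, limma).

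Of 21 other inflammasome sensors, adaptor, caspases and pore genes, 18 were tested, and 14 of these were higher and 4 lower in *Crlf2-/-* hearts on average. Their median log2 fold change was 0.17, and 49.1% of all tested genes were higher. This median was 0.0313 without *Crlf2-/-* replicate 1, 0.0534 without WT replicate 2, 0.0901 without WT replicate 3 and 0.106 without *Crlf2-/-* replicate 2. WT and *Crlf2-/-* hearts did not overlap for 2 of the 18, a share close to the 11.7% of all tested genes. *Txnip*, which encodes a redox-sensitive protein known to bind NLRP3, was at 117, 117 and 106 FPKM in WT and at 72.5, 79.1 and 93.2 FPKM in *Crlf2-/-* hearts. Its log2 fold change was -0.48 (SE 0.13, 95% interval -0.77 to -0.18, adjusted p = 0.369, limma), on the same side as that of *Nlrp3*. *Mefv*, which encodes the sensor pyrin, had a log2 fold change of 0.29 (adjusted p = 0.827, limma), with 2.56 to 3.61 FPKM in WT and 3.63 to 4.03 FPKM in *Crlf2-/-* hearts.

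Of 16 IL-1-inducible genes 14 were tested, and these spread most widely of the 4 lists, with log2 fold changes from -0.996 to 0.79 and a median of -0.099. WT and *Crlf2-/-* hearts did not overlap for 5 of the 14, with 3 higher and 2 lower, where the whole table had 5.37% and 6.37%. *Mmp3*, which encodes the matrix-degrading stromelysin-1, was at 3.45, 3.30 and 2.79 FPKM in WT and at 1.56, 1.92 and 1.21 FPKM in *Crlf2-/-* hearts. Its log2 fold change was -0.996 (SE 0.19, 95% interval -1.42 to -0.57, unadjusted p = 0.000638, adjusted p = 0.162, limma). *Ptgs2*, which encodes cyclooxygenase-2, went the other way, at 2.11, 2.42 and 1.80 FPKM in WT and 4.17, 4.47 and 2.70 FPKM in *Crlf2-/-* hearts (log2 fold change 0.79, SE 0.21, unadjusted p = 0.00505, adjusted p = 0.357, limma). The groups did not overlap for either gene, and neither passed the adjusted threshold. For *Ptgs2* the gap between the groups, from 2.42 to 2.70 FPKM, was smaller than the spread among the *Crlf2-/-* hearts. *Nfkbiz*, a regulator of NF-kB target genes, had a log2 fold change of 0.25 (adjusted p = 0.765), and *Lcn2*, which encodes the iron-carrier-binding lipocalin-2, one of -0.47 (adjusted p = 0.807, both limma). The list thus held genes on either side, with 5 higher and 9 lower.

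**Figure D4:**
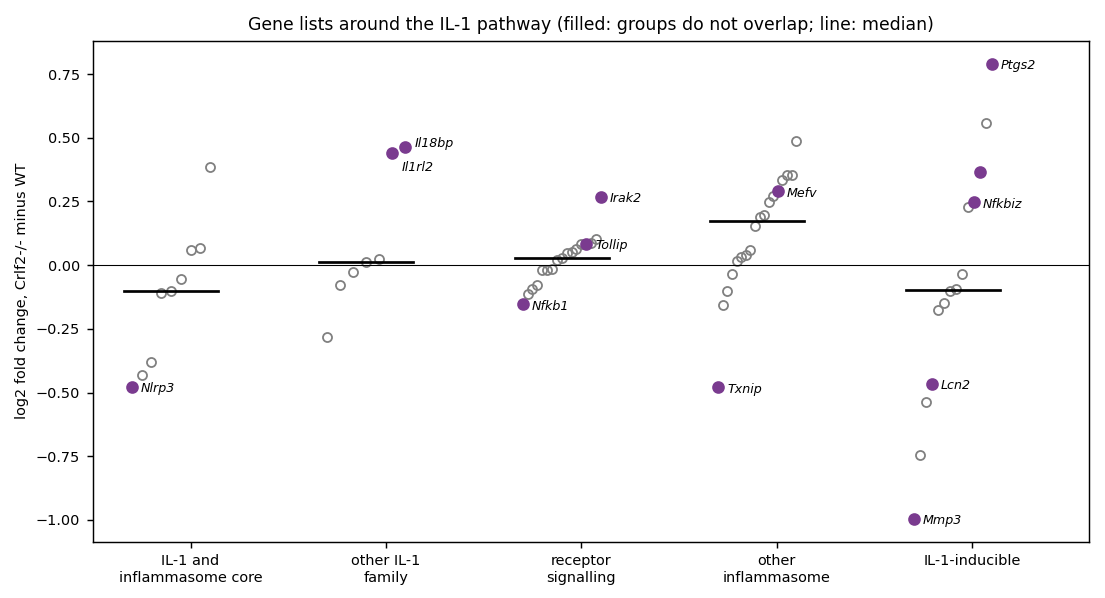
Log2 fold change (vertical axis, *Crlf2-/-* minus WT, limma on log2(FPKM + 0.1)) of every tested gene in 5 lists (horizontal axis), where each circle is 1 gene, filled circles are genes whose groups do not overlap, and lines are list medians. The medians lie between -0.10 and 0.17, and the genes farthest from 0 are *Mmp3* at -0.996 and *Ptgs2* at 0.79, both IL-1-inducible genes.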

How the data were processed

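Poly(A)-selected RNA from infarcted hearts of 3 WT and 3 *Crlf2-/-* mice was sequenced in paired ends. The authors trimmed the reads with fastp, aligned them with HISAT2 2.0.5 (mm10 and hg38 are both listed in the submitters' processing notes), counted with featureCounts, and deposited FPKM per gene and library beside a gene length. FPKM multiplied by gene length gave whole fragments, within 0.02, for 100% of nonzero values, and the fragments served for depth, filter and scaling (trimmed mean of M values). Positions of the 10 genes were the same in GENCODE M21 (GRCm38).

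The study's count test was not run here. The main test was made on the FPKM as the deposited unit, and voom on the fragments was the alternative closest to counts. limma 3.58.1 (R 4.3.3, eBayes with trend and robust variance) was fitted to log2(FPKM + 0.1) of the 15520 genes with 10 fragments or more in 3 or more libraries and 15 or more in all. Such fold changes understate those of low genes. For single values, exact permutation tests used every assignment of the 6 values to groups, and can give no two-sided p below 0.1. Benjamini-Hochberg adjusted p was 0.8 for each of the 4 ratios. All p-values set the difference between groups against the variation between these 6 mice, which limma estimates in part from the other genes. Values with few fragments are limited by counting error. Only the limma and voom fits were tried on simulated counts, with changes larger than those reported here or with none. Python 3.11.15, scipy 1.17.1 and pandas 2.3.3 were also used.

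The 10 genes, pathway lists and cell type markers were chosen with earlier results of these data known. Of each pathway list, called genes, or else at most 4 genes with the smallest p among those without overlap between groups, were named. Symbols listed under older names were matched through RefSeq synonyms. Alternatives were other scalings, filters and pseudocounts, voom on fragments, the replicate number as a block, and leaving out each library. The table held 0 columns of other samples.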

Additional observations from a re-analysis of the deposited data

How the results depend on the processing

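Over 135 comparisons of the 9 tested genes with an alternative, 0 passed both thresholds, and the lowest adjusted p was 0.394 (limma), for *Nlrp3* without WT replicate 3. Under other scalings, filters and pseudocounts, voom and the block, the log2 fold changes of these 9 genes kept their direction. Among all tested genes 2 were called, 1 higher and 1 lower. Without a filter there were 6, of which 2 were higher and 4 lower. Requiring 10 fragments in all libraries left 1, with 0 lower, where 922 genes had p under 0.05 before adjustment. voom on fragments called 2 lower. Leaving out single libraries gave 1 to 14 genes, 1 to 5 higher and 0 to 10 lower. The number was 14 without *Crlf2-/-* replicate 1, 8 without WT replicate 3, and 1 without WT replicate 1, WT replicate 2 or *Crlf2-/-* replicate 3. In those last 3 fits, each with 0 lower, 674 to 1096 genes had p under 0.05 before adjustment (limma). The cause was not tested.

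With the replicate number as a block, 4 genes were called (3 lower), and 0 of the 9. Libraries with the same number had deviations that correlated at -0.016, 0.115 and 0.12 over genes, and the number was not treated as a pairing.

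With single libraries left out, log2 fold changes ranged from -0.318 to 0.283 for *Il1b*, from -0.201 to 0.0722 for *Il1r1*, from -0.0064 to 0.204 for *Il1rap*, from -0.206 to 0.0056 for *Casp1* and from -0.0046 to 0.176 for *Gsdmd*. Those of *Il1rn*, *Il1r2*, *Il18* and *Nlrp3* kept their direction. The difference of mean log2 levels of *Il1a*, 0.247, ranged from -0.487 to 0.738. Differences in log2 ratio ranged from -0.897 to 0.141 for *Il1rn* to *Il1b*, from -1.44 to 0.961 for *Il1b* to *Il1a*, from -0.725 to -0.0312 for *Il1r2* to *Il1r1* and from -0.14 to 0.265 for *Il18bp* to *Il18*. The median of the other IL-1 family genes, 0.0117, ranged from -0.0589 (*Crlf2-/-* replicate 2 omitted) to 0.129 (*Crlf2-/-* replicate 3 omitted). Other medians ranged from -0.201 to 0.00555 for the 9 genes, from -0.00772 to 0.0567 for signal transducers, from 0.0313 to 0.236 for other inflammasome genes and from -0.0973 to 0.0196 for IL-1-inducible genes, the last turned by *Crlf2-/-* replicate 3 and that of signal transducers by *Crlf2-/-* replicate 1. Omitting *Crlf2-/-* replicate 1 turned *Il1b* (0.283), *Il1rap* (-0.0015), *Il1a* (-0.487) and *Il1b* to *Il1a* (0.961). Omitting *Crlf2-/-* replicate 2 turned *Gsdmd* (-0.0046), and replicate 3 turned *Il1r1* (0.0722), *Casp1* (0.0056), *Il1rn* to *Il1b* (0.141) and *Il18bp* to *Il18* (-0.14). Omitting WT replicate 1 turned *Il1rap* (-0.0064), *Il1rn* to *Il1b* (0.0666) and *Il18bp* to *Il18* (-0.0512), and WT replicate 2 turned *Il1r1* (0.0299), *Il1a* (-0.208) and *Il1b* to *Il1a* (0.383). The cause was not tested.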
